A study of Mus musculus with 6 samples.

Results

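The genes described here are those for the subunits of the proteasome and its activators, taken as every row of the deposited table whose gene symbol is Psma, Psmb, Psmc, Psmd or Psme followed by a number. 43 of the 23284 genes listed met this rule. RNA-seq was made from heart ventricles of C57BL/6 mouse embryos at E9.5, with 3 wild type (WT) embryos and 3 Tbx5ua-/- (knockdown, KD) embryos. Both kinds were tetraploid chimeras, in which the embryo proper comes from the injected ES cells. Tbx5ua is the lncRNA divergent to Tbx5. In the KD ES cells, which were picked as clonal colonies, CRISPR/Cas9 had placed polyadenylation signals in both of its alleles to stop the transcript early, and the selection cassettes had been taken out with Cre. Which clone each sequenced embryo came from is not given in the sources used here.

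The proteasome is the large protease that degrades proteins marked with ubiquitin. Its barrel-shaped 20S core is a stack of rings of alpha and beta subunits with the proteolytic sites inside. The 19S regulatory particle caps the core, binds ubiquitin chains, removes them and threads the unfolded substrate inwards with a ring of ATPases. In the heart it turns over sarcomere and signalling proteins. Immune cells, and other cells under interferon, use replacement catalytic subunits, which make the immunoproteasome, and other caps that act without ubiquitin.

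The table gives 1 FPKM value (fragments scaled by transcript length and by library size) for each group. From these values no SD and no test between embryos can be computed, and the library depths are unknown. The authors' own test results in the table were not used. All FPKM values below are the authors' group values. A difference is log2((KD + 1)/(WT + 1)), positive when KD is higher, and genes with a mean FPKM of at least 1 over both groups were kept, 11366 in all. The kept genes had a median difference of 0.00, and all FPKM of the table added up to 859452 for WT and 877889 for KD. The labelled tissue carried its defining markers: the 9 cardiomyocyte markers summed to 33962 FPKM in WT against 35804 in KD, and 0 of them differed by more than 0.32 on the log2 scale. Epicardial markers differed between the groups, with a sum over 7 genes of 47.1 FPKM in WT against 96.0 in KD. All 6 kept genes were more than 0.32 higher in KD, as were 8.23% of all kept genes. Aldh1a2, at 0.872 FPKM in WT against 1.74 in KD, passed the filter only through its KD value. The part of epicardial cells in the differences of proteasome genes was not tested. In bulk tissue fewer cells of a type and less RNA per cell cannot be told apart. Tbx5ua itself was not analysed here.

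Of the 43 proteasome genes 40 were kept, and 0 of them differed by 1.5-fold between KD and WT, where 3.41% of all kept genes did (2.05% higher and 1.36% lower in KD). A smaller limit of 0.32 on the log2 scale, which is KD + 1 being 25% above WT + 1 or the reverse, was also passed by 0 of 40, against 14.3% of all kept genes (8.23% higher and 6.08% lower). The widest differences were 0.28 for Psme1 and -0.24 for Psmc6. KD was above WT in 13 genes and below it in 27, where KD was above WT in 50.7% of all kept genes. When the FPKM values of each group were rescaled to the same sum (TPM), KD was above WT in 6 of the 40 and in 44.9% of all genes. The median difference of the 40 genes was -0.04. Their SD was 0.10 and their interquartile range 0.08, against 0.51 and 0.26 over all kept genes. Genes are not replicates. Among the 1176 genes with a mean of at least 100 FPKM, 32 of them proteasome genes, the interquartile range was 0.17 and 6.38% passed the smaller limit, while the SD was 0.93.

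**Figure D1:**
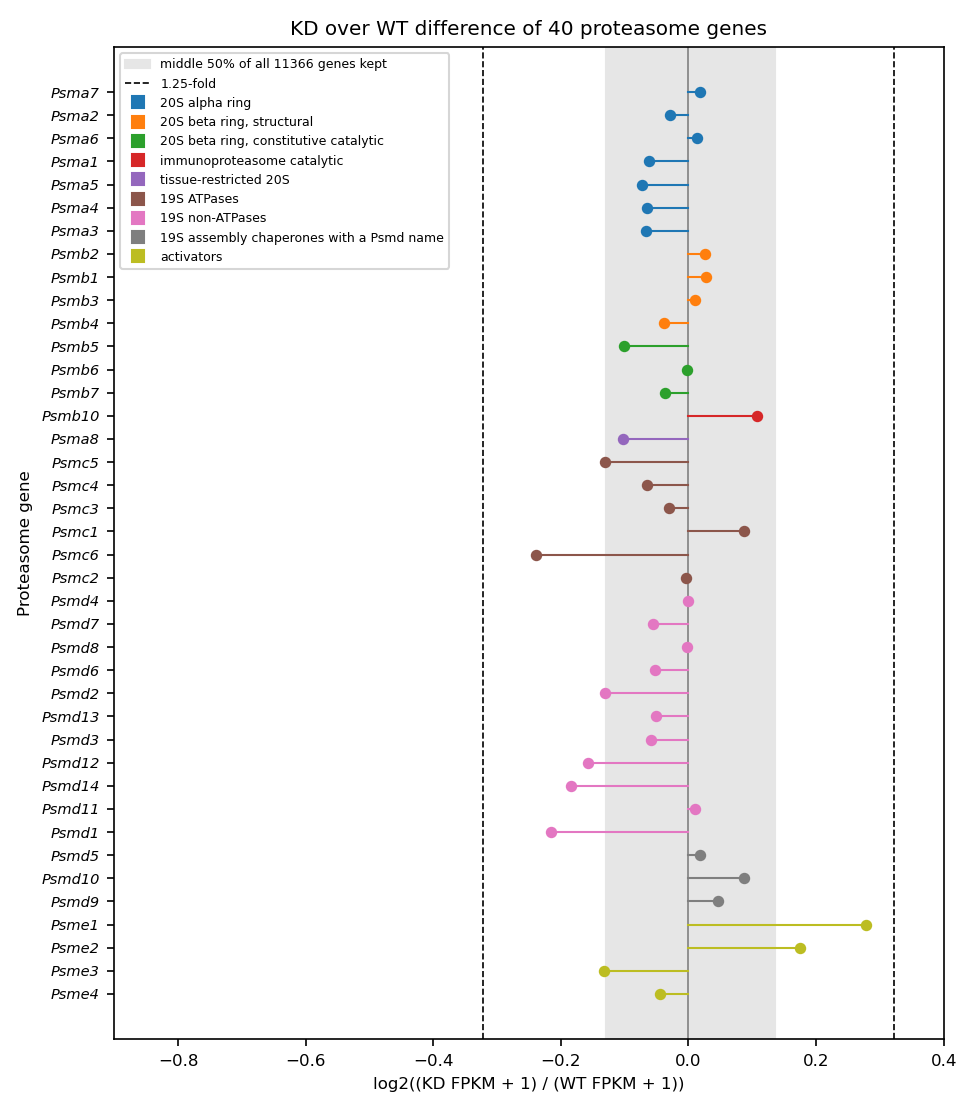
Difference between KD and WT, log2((KD FPKM + 1)/(WT FPKM + 1)), for each of the 40 kept proteasome genes, coloured by part of the complex and ordered by level within it. The grey band holds the middle 50% of the 11366 kept genes and the dashed lines, labelled by their fold, mark a difference of 0.32 either way, which 0 of the 40 genes reach.

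The 14 constitutive subunits of the 20S core had the highest median level of the parts of the complex, 464 FPKM in WT against 452 in KD. Each lay above the 95th percentile of the kept genes in WT. The 7 beta subunits were close to each other, from 461 FPKM for Psmb4 to 534 FPKM for Psmb2 in WT, a range of 1.16-fold. The 7 alpha subunits spread more widely, from 291 FPKM for Psma3 to 609 FPKM for Psma7 in WT, a range of 2.10-fold. In KD these ranges were 1.21-fold and 2.23-fold. Psma3 forms part of the gate of the alpha ring, and its value was 277 FPKM in KD. Psma7 had 617 FPKM in KD. KD was below WT in 9 of the 14 core genes and above it in 5, with differences from -0.10 to 0.03 and a median of -0.03. After rescaling to TPM, a shift of -0.03 for each of the 14, it was above WT in 0 of the 14 and in 44.9% of all kept genes. Over the 6 core genes with no shared locus, no pseudogene copy and at most 10% of exonic bases in other genes the median was 0.01. The genes left out include most of the alpha ring (Psma2, Psma3, Psma4, Psma5 and Psma6). Shared sequence and ring therefore cannot be told apart in this change of sign.

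Within the alpha ring, which forms the entry to the core, 5 of 7 genes were lower in KD, where 49.3% of all kept genes were. Psma1 had 353 FPKM in WT against 338 in KD, Psma4 had 336 against 321 and Psma5 had 342 against 325. Psma2 had 454 FPKM in WT against 445 in KD. These differences lay between -0.07 and -0.03. Psma6, with 375 FPKM in WT against 378 in KD, and Psma7 were the 2 alpha genes above WT, by 0.01 and 0.02, and both were below it after rescaling to TPM, at -0.02 and -0.01. The structural beta subunits carry no active site. Psmb1 had 504 FPKM in WT against 513 in KD, Psmb2 had 534 against 544 and Psmb3 had 467 against 470, while Psmb4 had 461 against 449. The median difference was 0.02 for the 4 structural genes and -0.04 for the 3 catalytic genes of this ring, and -0.01 and -0.07 after rescaling to TPM, which shifts abundant genes alike and left 0 of the 4 structural genes above WT. No spread between embryos is known, so these orders were not tested.

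Sequence shared with other genes limits some of these values, since how their reads were assigned is not known. As listed, 6 of the 43 genes have a locus in common with another gene, among them Psma3, Psma4 and Psma6. In the annotation 4 have over 10% of their exonic bases in exons of another gene, and 10 have at least 1 pseudogene copy, with 3 copies each for Psma3 and Psmb3.

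**Figure D2:**
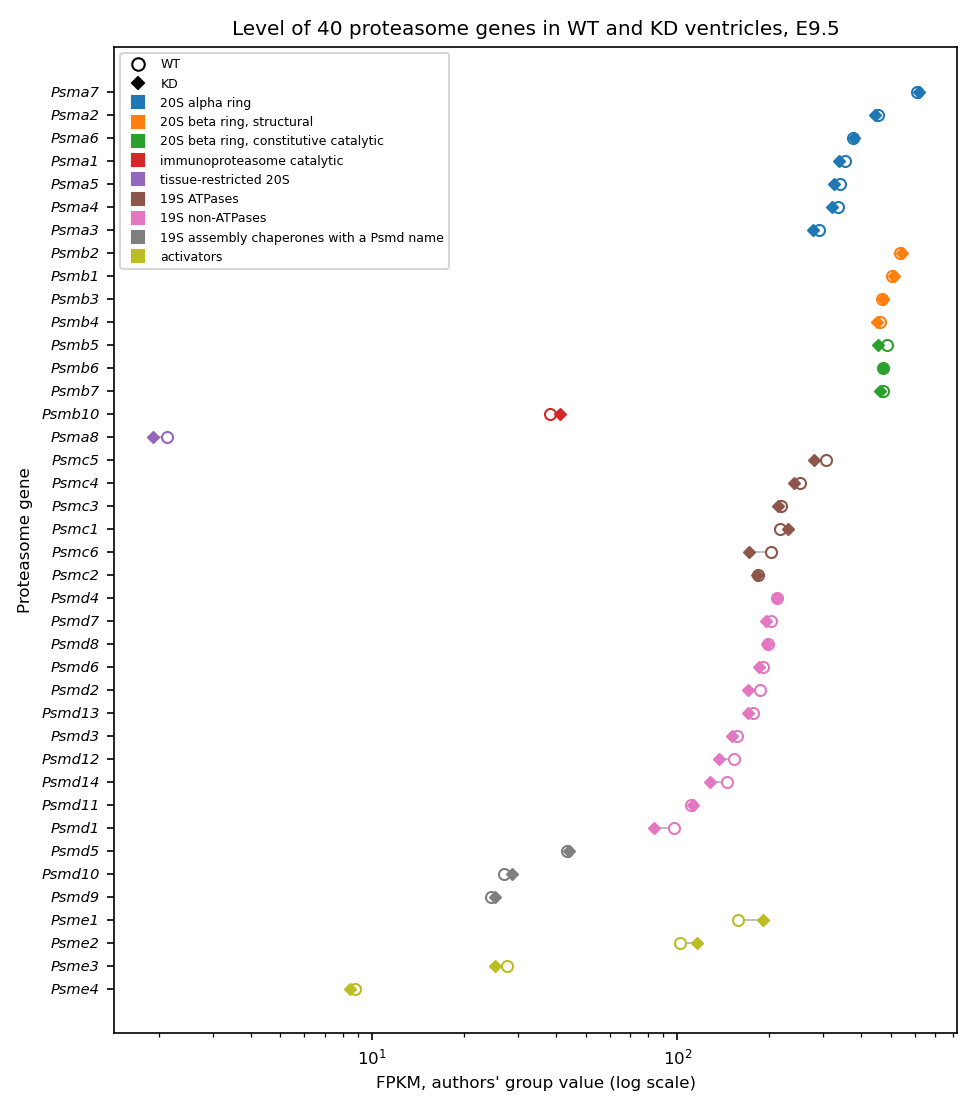
FPKM on a log axis for the 40 kept proteasome genes in WT (open circles) and KD (filled diamonds), coloured by part of the complex, with 1 authors' group value per point. The constitutive 20S genes lie between 277 and 617 FPKM, the 19S genes between 84.1 and 306 FPKM, and the 19S assembly chaperones at or below 44.0 FPKM.

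Proteolysis is carried out by 3 beta subunits of the core, and each has an interferon-induced replacement. Psmb5 (chymotrypsin-like activity, beta5) is replaced by Psmb8, Psmb6 (caspase-like, beta1) by Psmb9 and Psmb7 (trypsin-like, beta2) by Psmb10. The RefSeq promoter windows of GRCm38.p6, from 250 bases before to 50 after a transcript start, are shown for the constitutive Psmb5 and Psmb6 and for all 3 replacements, because the levels within a pair differ so widely. They are read 5′ to 3′ on the strand of the gene. The Psmb5 window is chr14:54617946-54618245 (minus strand), that of Psmb6 chr11:70525107-70525406 (plus strand), that of Psmb8 chr17:34197945-34198244 (plus strand), that of Psmb9 chr17:34187281-34187580 (minus strand) and that of Psmb10 chr8:105938343-105938642 (minus strand). Capitals mark TGACNNNGC in Psmb5 and Psmb6, TTCNNNGAA in Psmb8 and GGGCGG in Psmb9, on either strand, and none of these is marked in Psmb10. Only the motif named for a gene is marked, and the Psmb6 window also holds an unmarked GGGCGG.
Psmb5: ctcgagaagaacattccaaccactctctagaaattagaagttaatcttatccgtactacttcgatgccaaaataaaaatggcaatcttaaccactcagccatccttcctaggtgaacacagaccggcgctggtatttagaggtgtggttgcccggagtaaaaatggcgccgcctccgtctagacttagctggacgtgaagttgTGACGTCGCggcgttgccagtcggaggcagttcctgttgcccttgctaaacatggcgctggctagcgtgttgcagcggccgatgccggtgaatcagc
Psmb6: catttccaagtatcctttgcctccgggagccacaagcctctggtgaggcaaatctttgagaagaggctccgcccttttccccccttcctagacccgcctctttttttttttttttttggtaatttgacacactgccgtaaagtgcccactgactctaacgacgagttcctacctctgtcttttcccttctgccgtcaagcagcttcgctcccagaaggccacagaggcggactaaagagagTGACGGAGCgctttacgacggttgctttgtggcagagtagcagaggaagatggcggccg
Psmb8: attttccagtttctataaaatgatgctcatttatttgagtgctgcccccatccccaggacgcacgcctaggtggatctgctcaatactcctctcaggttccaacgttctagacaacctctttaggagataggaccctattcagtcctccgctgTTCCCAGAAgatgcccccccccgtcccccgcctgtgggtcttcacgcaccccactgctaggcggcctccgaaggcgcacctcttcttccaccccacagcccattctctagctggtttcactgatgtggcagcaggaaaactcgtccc
Psmb9: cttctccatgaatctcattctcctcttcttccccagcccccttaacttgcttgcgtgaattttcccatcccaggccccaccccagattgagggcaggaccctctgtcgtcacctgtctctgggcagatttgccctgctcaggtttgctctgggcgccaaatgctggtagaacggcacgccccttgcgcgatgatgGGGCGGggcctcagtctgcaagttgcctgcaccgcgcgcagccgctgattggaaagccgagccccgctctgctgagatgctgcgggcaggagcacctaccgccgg
Psmb10: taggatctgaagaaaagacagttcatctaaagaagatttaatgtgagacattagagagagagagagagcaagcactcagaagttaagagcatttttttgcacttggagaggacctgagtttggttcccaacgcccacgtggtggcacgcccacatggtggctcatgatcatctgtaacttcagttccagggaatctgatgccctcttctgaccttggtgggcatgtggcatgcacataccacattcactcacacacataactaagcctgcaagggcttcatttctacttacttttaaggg

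Ventricles of both groups expressed the constitutive catalytic subunits and hardly any Psmb8 or Psmb9. Psmb5 (chr14:54614120-54617995) had 487 FPKM in WT against 454 in KD, a difference of -0.10. It shares its locus in the table and 12.1% of its exonic bases with the microRNA gene Mir686, which was listed at 533 FPKM in WT against 729 in KD, a difference of 0.45. The part of Mir686 reads in the value of Psmb5 was not tested. Psmb6 (chr11:70525357-70527858) had 472 FPKM in WT against 471 in KD. Psmb7 (chr2:38588046-38643906) had 472 FPKM in WT against 460 in KD, and 34.9% of its exonic bases also lie in exons of Nek6. Psmb8 was listed at 0 in WT and at 0.0531 FPKM in KD, and Psmb9 at 0.0478 FPKM in WT and 0 in KD, so no fold is given for either. Psmb9 and Psmb8 lie 10864 bases apart on chromosome 17, and Psmb9 shares 15.7% of its exonic bases with Tap1, the antigen peptide transporter gene, which had 0.194 FPKM in WT against 0.372 in KD.

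Psmb10 stood apart from the other replacements. At chr8:105935728-105938392 it had 38.3 FPKM in WT against 41.3 in KD, a difference of 0.11. It made up 7.50% of the summed FPKM of Psmb10 and Psmb7 in WT and 8.24% in KD. Over all 3 pairs the replacements held 2.61% of the catalytic beta FPKM in WT and 2.90% in KD. In both groups this share was almost entirely Psmb10. Leukocyte markers, whose cells carry immunoproteasomes, were low: 8 genes of the list summed to 24.4 FPKM in WT against 19.7 in KD, most of it Lyz2 with 20.3 and 16.5 FPKM. Ptprc, which defines leukocytes, had 0.00676 FPKM in WT against 0.0115 in KD. The part of leukocytes in the Psmb10 values was not tested.

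**Figure D3:**
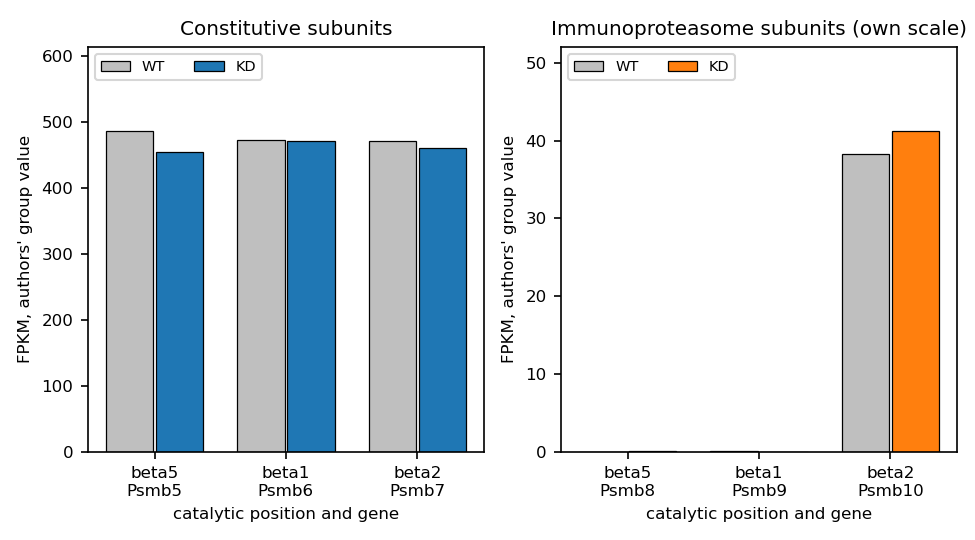
FPKM of the constitutive catalytic beta subunits (left) and of their immunoproteasome replacements (right, on its own scale) in WT and KD, 1 authors' group value per bar and axes from 0. The constitutive bars lie between 454 and 487 FPKM, while of the replacements Psmb10 alone is visible, at 38.3 and 41.3 FPKM.

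The table also held core subunits of other tissues at low levels. Psma8, the alpha subunit of male germ cells, had 2.12 FPKM in WT against 1.91 in KD. Psmb11, the beta5 subunit of the thymic cortex, was listed at 0.261 FPKM in WT against 0.183 in KD and was not kept. Psmb11 lies 7314 bases from Psmb5 on chromosome 14.

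The 19S regulatory particle was expressed at less than the level of the core. Its 17 subunit genes with Psmc or Psmd names had a median of 191 FPKM in WT against 183 in KD, which put the median of the core at 2.43 times that of the 19S genes in WT and 2.47 times in KD. Counting any difference, KD was below WT in 15 of the 17 genes and above it in 2, where 49.3% of all kept genes were lower. Their median difference was -0.05, and 0 of the 17 passed 0.32, which 14.3% of all kept genes did (6.38% of those with a mean of at least 100 FPKM). After rescaling to TPM 1 of the 17 was higher, where 44.9% of all kept genes were, and the median was -0.09.

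The ATPase ring pulls substrates into the core. Among its 6 genes, 5 were lower in KD. Psmc5 was the most abundant, with 306 FPKM in WT against 279 in KD, and Psmc2 the least in WT, with 183 FPKM in both groups. Psmc6 (chr14:45329824-45349071) had 203 FPKM in WT against 172 in KD, 84.7% of the WT value. It had the widest difference below 0 of the 40 genes. Psmc3 had 218 FPKM in WT against 214 in KD and Psmc4 had 251 against 240. Psmc1 was the exception in direction, with 217 FPKM in WT against 230 in KD. Psmc1 has 2 pseudogene copies of near-identical sequence, and Psmd2 and Psmd11 also have copies. The part of such copies in these values was not tested.

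Of the 11 non-ATPase genes 10 were lower in KD, counting any difference, which for Psmd4 and Psmd8 was -0.00014 and -0.0022 on the log2 scale. Psmd1, a scaffold of the particle at chr1:86064619-86139295, was the lowest of them, with 97.8 FPKM in WT against 84.1 in KD, a difference of -0.22. Its locus in the table also holds Htr2b, at 0.198 FPKM in WT. Psmd14, the deubiquitinase that cuts ubiquitin chains off the substrate, had 145 FPKM in WT against 127 in KD, a difference of -0.18. Psmd12 had 153 FPKM in WT against 137 in KD. With Psmd11 they were the 4 lowest of the 11 in KD. Psmd2, a scaffold like Psmd1, had 187 FPKM in WT against 170 in KD, a difference of -0.13. Psmd3 had 157 against 151, Psmd6 had 191 against 184, Psmd7 had 203 against 195 and Psmd13 had 177 against 171, each with a difference of -0.06 or -0.05. By contrast the ubiquitin receptor Psmd4, the highest of the 11, had 212 FPKM in both groups to the nearest whole number, and Psmd8 had 197. Psmd11, at 111 FPKM in WT against 112 in KD, was the only one of the 11 above WT, by 0.01, and after rescaling to TPM it was at -0.02.

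Psmd5, Psmd9 and Psmd10 carry subunit names but encode chaperones that assemble the ATPase ring and leave the finished particle. Their levels were lower than those of each of the 17 subunit genes, from 24.4 FPKM for Psmd9 to 43.4 FPKM for Psmd5 in WT. Psmd10, also known as gankyrin, had 26.9 FPKM in WT against 28.7 in KD. All 3 were higher in KD, with differences of 0.02 for Psmd5, 0.05 for Psmd9 and 0.09 for Psmd10. After rescaling to TPM the difference of Psmd5 was -0.01.

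**Figure D4:**
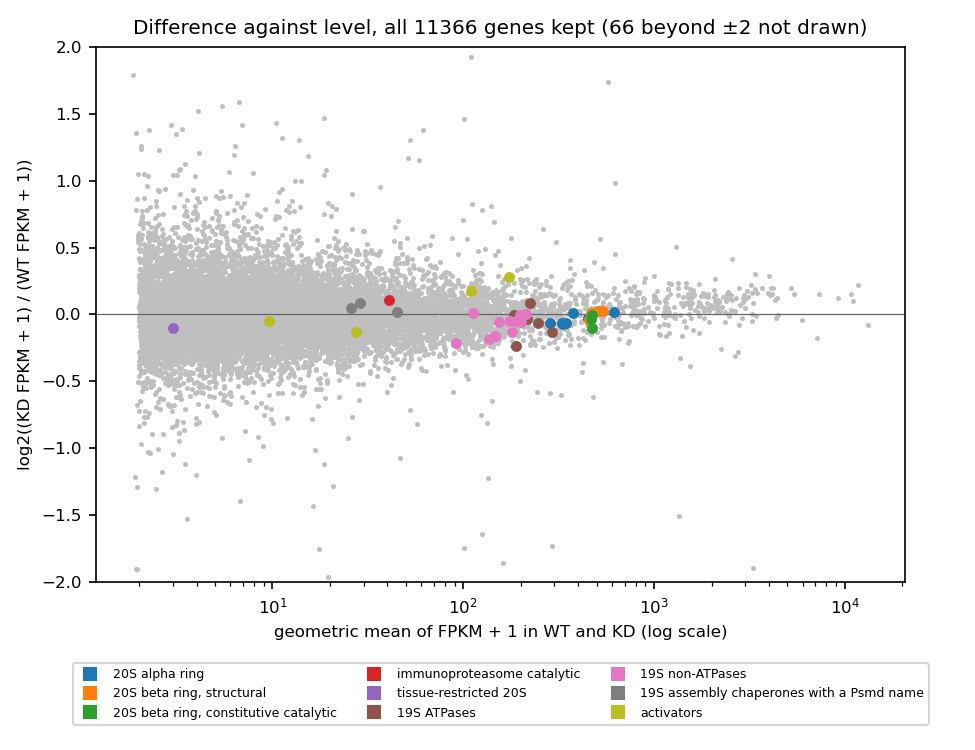
Difference between KD and WT against level (log axis) for the 11366 kept genes, with the 40 proteasome genes in colour by part of the complex and other genes in grey; 66 genes beyond the vertical axis are not drawn. The interquartile range is 0.26 over all kept genes and 0.17 from 100 FPKM upwards, where the SD is wider, and the coloured points lie between -0.24 and 0.28.

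The widest differences above 0 were those of the PA28 activator. Psme1 and Psme2 encode the PA28 alpha and beta subunits, which form a ring on the core, open it without ubiquitin and are induced by interferon. They lie 2185 bases apart at chr14:55578494-55585254 and chr14:55587440-55591101. Psme1 had 157 FPKM in WT against 191 in KD, 121% of the WT value. Psme2 had 102 FPKM in WT against 116 in KD, 113% of the WT value, a difference of 0.17. Psme1 was 1.54 times the level of Psme2 in WT and 1.65 times in KD. Psme1 shares its locus in the table with Fam158a, which had 28.4 FPKM in WT against 31.5 in KD, and their exons overlap by 7 bases. It also has 1 pseudogene copy. The other activators were lower in KD. Psme3, the nuclear PA28 gamma, had 27.7 FPKM in WT against 25.2 in KD, a difference of -0.13. Psme4, a single-chain nuclear activator, had 8.76 FPKM in WT against 8.45 in KD. Windows of the PA28 pair and of Psmc6, the genes with the widest differences in each direction, follow. That of Psme1 is chr14:55578244-55578543 (plus strand), with a pair of GAAA with any 2 bases between them in capitals. That of Psme2 is chr14:55591052-55591351 (minus strand), with GGGCGG in capitals. Psme2 has another window, chr14:55590972-55591271 (minus strand), which is not shown and also holds GGGCGG. The Psmc6 window is chr14:45329574-45329873 (plus strand), with TGACNNNGC in capitals. Each motif was sought on either strand, and GGGCGG also occurs unmarked in the windows of Psme1 and Psmc6.
Psme1: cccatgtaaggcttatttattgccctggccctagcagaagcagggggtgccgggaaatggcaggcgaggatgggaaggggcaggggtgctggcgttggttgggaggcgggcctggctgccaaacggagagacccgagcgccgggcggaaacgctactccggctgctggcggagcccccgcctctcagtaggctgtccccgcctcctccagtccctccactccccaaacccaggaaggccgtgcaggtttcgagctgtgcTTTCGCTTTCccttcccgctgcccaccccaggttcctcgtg
Psme2: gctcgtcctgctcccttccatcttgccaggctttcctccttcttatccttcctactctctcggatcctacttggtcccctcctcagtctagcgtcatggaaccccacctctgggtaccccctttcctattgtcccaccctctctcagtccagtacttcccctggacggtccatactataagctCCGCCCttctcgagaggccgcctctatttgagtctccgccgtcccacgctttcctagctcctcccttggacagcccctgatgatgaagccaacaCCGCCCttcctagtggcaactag
Psmc6: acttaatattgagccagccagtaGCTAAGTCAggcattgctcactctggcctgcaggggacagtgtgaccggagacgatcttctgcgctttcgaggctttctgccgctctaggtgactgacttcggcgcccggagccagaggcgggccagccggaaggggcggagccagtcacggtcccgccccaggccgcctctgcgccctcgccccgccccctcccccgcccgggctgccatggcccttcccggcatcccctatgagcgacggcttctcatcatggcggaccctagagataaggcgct

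Promoter windows were found for 36 of the 43 genes, 39 windows in all, and none for Psma8, Psmb1, Psmb2, Psmb7, Psmc3, Psmd3 and Psmd7. The windows were rich in CpG, with a median of 19 CpG against 7 over all 32851 windows of the RefSeq table. Psmb10 and 1 of the Psma6 windows had the fewest, 3. TGACNNNGC, the core of the antioxidant response element bound by NRF1 and NRF2, was present in 15.4% of the proteasome windows and 12.4% of all windows. It was found in those of Psmb5, Psmb6, Psmc6, Psmd9, Psmd12 and Psme4. The looser TGANNNNGC, which includes it, was present in 59.0% against 41.3%. GGGCGG, the GC box, was also present in 59.0%, against 35.7%, and CCAAT in 35.9% against 37.4%. Of the interferon-responsive motifs TTCNNNGAA was present in 5.13% against 8.30%, in Psmb8 and Psmd2, and GAAA, any 2 bases and GAAA again in 10.3% against 3.44%, in Psmb3, Psmd4, Psmd9 and Psme1. Both strands were searched, the windows differ from all windows in base composition, and a match is a description of letters only.

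Of the genes on 4 lists of proteasome partners, Mafk and H2-K1 were past the 0.32 limit and the other kept genes were not. Of 12 proteasome factors with other names (assembly chaperones, ubiquitin receptors and deubiquitinases) 5 were higher and 7 lower in KD (3 and 9 after rescaling to TPM), against 50.7% of all kept genes higher (44.9% after rescaling), with a median of -0.03 and 0 past the 0.32 limit, which 14.3% of all kept genes passed. Shfm1, a small 19S subunit, was the highest with 811 FPKM in WT against 827 in KD. The core assembly factor Pomp had 427 and 452 FPKM. Usp14, a deubiquitinase of the 19S particle, had 52.6 and 45.4 FPKM, a difference of -0.21.

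NRF1, encoded by Nfe2l1, is the transcription factor that raises proteasome genes when the proteasome is inhibited. Nfe2l1 had 11.7 FPKM in WT against 12.4 in KD, and Nfe2l2, the highest of this list of 9 genes, had 31.8 and 33.4 FPKM. Ddi2, the protease that activates NRF1, had 3.40 and 4.08 FPKM. The list had a median of -0.01, and 1 of the 9 was past the 0.32 limit, as were 14.3% of all kept genes: Mafk, a small Maf partner of these factors, with 13.0 FPKM in WT against 9.64 in KD, a difference of -0.40.

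Of 13 genes for ubiquitin supply and shuttling 10 were higher in KD (9 after rescaling to TPM), against 50.7% of all kept genes (44.9% after rescaling). Their median was 0.06, and 0 passed the 0.32 limit, which 14.3% of all kept genes did. Ubb had 864 and 825 FPKM, and the unfoldase gene Vcp 313 and 321 FPKM. Of 9 kept genes for MHC class I antigen processing 6 were higher in KD (5 after rescaling to TPM), against 50.7% of all kept genes (44.9% after rescaling). Their median was 0.06, and 1 was past the 0.32 limit, against 14.3% of all kept genes. It was H2-K1, with 1.35 FPKM in WT against 2.07 in KD. Calr, the highest, had 283 and 294 FPKM. Nlrc5 and Tap2 were listed at 0 in both groups. Tapbpl, 1 of the 6 MHC class I genes higher in KD, had 0.920 FPKM in WT against 1.33 in KD. It passed the filter only through its KD value.

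**Figure D5:**
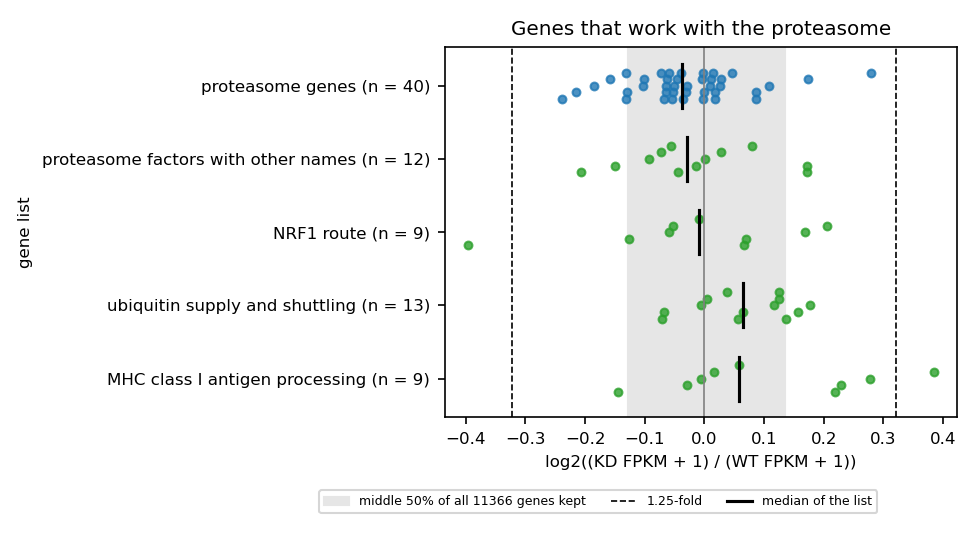
Difference between KD and WT for the 40 kept proteasome genes (blue) and the kept genes of 4 partner lists (green), with 1 point per gene and a bar at each list's median, the grey band for the middle 50% of all 11366 kept genes and dashed lines, labelled by their fold, at 0.32 either way. Past the dashed lines lie Mafk, at -0.40, and H2-K1, at 0.38.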

How the data were processed

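Total RNA of ventricles from 3 WT and 3 KD embryos was made into Smart-Seq2 libraries, a full-length cDNA method that does not mark strand. Per the labels (the submitters' processing notes) the authors used TopHat, Bowtie2 and Cuffdiff on mm10 (GRCm38). Their versions, the annotation and the handling of reads that map to several genes are not given in the sources used here. The authors deposited 1 Cuffdiff table with 1 FPKM value per gene for WT and 1 for KD (named KO there). Its columns of the authors' own comparison (fold change, test statistic, p-value, q-value, call) were not used, and 0 columns of single samples were present. Depth per library is unknown. With 1 value per gene and group, no interval, SD or test between embryos is given.

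Differences were computed as log2((KD + 1)/(WT + 1)) for genes with a mean of at least 1 FPKM, and genes past 1.5-fold or past 0.32 on the log2 scale were counted. Named genes were the catalytic, immunoproteasome, tissue-restricted and activator genes, the highest and lowest of each part in WT, the 3 widest differences in each direction, and in other lists those past the 0.32 limit and the highest. The highest gene of 1 list is not reported here. Any further gene was picked with its values in view. Members and lists were chosen with earlier results of these data known. Table starts have 1 added, which matched GENCODE M21 transcript starts for 8988 genes against 824 without. Exon overlap came from that annotation, and pseudogene copies were BLAST 2.17.0 matches of at least 95% identity over 200 bases. Python 3.11.15, NumPy 2.4.6, pandas 2.3.3 and Matplotlib 3.10.9 were used. Alternatives were other pseudocounts, filters and scalings and, added after seeing the data, the interquartile range and leaving out genes with shared sequence.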

Additional observations from a re-analysis of the deposited data

How the results depend on the processing

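The counts past 1.5-fold and past the 0.32 limit stayed at 0 under each alternative run. They could have changed with pseudocounts of 0.1 and 0, no filter, centring on the median of all genes and rescaling to TPM. Minimums of 5 and 20 FPKM could only give 0, since they keep part of the same genes with the same differences. The same holds for leaving out genes that share a locus, over 10% of exonic bases or a pseudogene copy, chosen after seeing the data. The count at 2-fold was also bound to be 0, as 0 genes passed 1.5-fold. Since no spread was available, a value was taken as moved when its 2 decimals differed. A count of genes was taken as moved when the larger was over 1.5 times the smaller. Rescaling to TPM took the 13 genes higher in KD to 6, the median of the 40 genes from -0.0372 to -0.0678, the core to -0.0631, the 19S genes to -0.0854 and Psmb10 to 0.0781, by construction, since it moved the median of all genes to -0.02. Centring gave -0.0362 for the core, -0.0586 for the 19S genes and 0.104 for Psmb10. Pseudocounts of 0.1 and 0 gave -0.0552 each for the 19S genes, and without a filter the median of the 3 immunoproteasome genes was 0.0747. That median is the value of Psmb8, which was listed at 0 in WT, so it rests on the pseudocount and is no fold. With a minimum of 20 FPKM the median of the members was -0.0336. Leaving out genes with shared sequence left 8 of 27 genes higher in KD and a core median of 0.00798. The share of immunoproteasome FPKM, 0.29 percentage points higher in KD over all pairs, was 0.012 for Psmb8 and Psmb5, -0.010 for Psmb9 and Psmb6 and 0.74 for Psmb10 and Psmb7. The interquartile range of the differences, chosen after seeing the data, was 0.0837 in place of an SD of 0.0984. Of the 40 genes 7 changed sign under TPM: Psma6, Psma7, Psmb1, Psmb2, Psmb3, Psmd5 and Psmd11. Over the 21 kept genes named by rule, no difference moved by more than 0.051 under these alternatives. The single differences of Psmb8, Psmb9 and Psmb11, the named genes under 1 FPKM, were not run under them. These 3 genes entered the set values without a filter, and Psmb8 and Psmb9 also entered the shares. No paired analysis was possible because single embryos have no values of their own here, and leaving out each replicate was not run for the same reason. For Psmb8, Psmb9 and Psmb11 the precision is not known, as depth is not.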
